A study of Mus musculus with 16 samples.

Results

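The genes described here encode the Meis and Pbx proteins, the DNA-binding partners of Hox proteins. They are *Meis1*, *Meis2*, *Meis3*, *Pbx2*, *Pbx3* and *Pbx4*, chosen by gene symbol with earlier results of these data known. These are 6 of the 26411 genes counted in whole mouse embryos at embryonic day (E) 9.5. All 6 had enough counts to be tested. The embryos carried or lacked *Kat6a*, which encodes a histone acetyltransferase, and carried or lacked a transgene that overexpresses the related *Kat6b*. The series asked how far *Kat6b* overexpression changes gene expression when KAT6A is missing.

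Meis and Pbx proteins are homeodomain proteins of the TALE class, named after a short loop extension in the homeodomain. Pbx proteins bind DNA together with many Hox proteins. Meis proteins bind Pbx proteins, help to hold them in the nucleus, and join the same complexes, so that Hox proteins select their targets in the company of these cofactors. In the midgestation embryo they act in the hindbrain, the somites, the limb buds, the heart and the blood-forming tissue.

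There were 4 embryos of each genotype. Wild-type embryos were *Kat6a+/+Kat6b+/+*. Embryos without KAT6A were *Kat6a-/-Kat6b+/+*. Embryos with the transgene had either both copies of *Kat6a*, written *Kat6a+/+Tg(Kat6b)*, or none, written *Kat6a-/-Tg(Kat6b)*. The *Kat6a* null allele lacks internal exons and is a germline deletion, so every tissue of the embryo was affected. *Tg(Kat6b)* is a multicopy insertion of a bacterial artificial chromosome that holds the coding exons of *Kat6b* with flanking sequence, and all transgenic embryos descend from 1 line. All mice were on a hybrid background of FVB and BALB/c. Wild-type embryos came from litters 801, 803, 2597 and 2598, *Kat6a-/-Kat6b+/+* embryos from litters 801 and 803, and *Kat6a+/+Tg(Kat6b)* embryos from 2597 and 2598. Litters 483 and 498 gave the *Kat6a-/-Tg(Kat6b)* embryos and held no other genotype here, so for them litter and genotype cannot be told apart. Each genotype had 2 female and 2 male embryos. In the wild type and in *Kat6a-/-Kat6b+/+* embryos the sexes came from different litters.

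Reads counted on genes totalled 14407277 to 45665680 per embryo. *Kat6b* stood at 46.2 ± 2.45 CPM (the count scaled by effective library size; mean ± SD, n = 4) in the wild type and at 49.1 ± 2.03 CPM in *Kat6a-/-Kat6b+/+* embryos. With the transgene it stood at 192 ± 29.7 CPM on the wild-type background and at 197 ± 4.92 CPM without *Kat6a*. *Kat6a* was counted over the whole gene at 138 to 218 CPM in all 16 embryos, which does not check the deletion of some of its exons. No 2 embryos of a genotype had counts within sampling noise of each other. Of 5 trophoblast and decidua markers, 2 had no count and the summed level was at most 0.218 CPM in any embryo, while 7 yolk sac endoderm markers summed to between 3.38 and 51.9 CPM.

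Levels between genes were compared as CPM per kilobase of the listed gene length (RPKM). *Pbx2*, a broadly expressed Pbx gene, had the highest level in all 16 embryos at 95.7 ± 3.63 RPKM (SD, n = 16), with a range of 88.8 to 101. *Meis2* and *Meis1* followed, at 32.1 ± 0.979 and 30.4 ± 1.54 RPKM. Both are known for marking the proximal limb bud and for responding to retinoic acid. *Pbx3*, known for roles in neurons and limbs, stood at 24.5 ± 0.786 RPKM. *Meis3*, known from hindbrain patterning in fish and frogs, stood at 24.1 ± 2.03 RPKM. *Pbx4*, known mostly from the testis, was far below the others at 1.94 ± 0.29 RPKM, from 41 to 134 counts per embryo.

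With the listed lengths, most steps of this order held in every embryo. Within an embryo *Pbx2* was 2.99 ± 0.153 times (SD, n = 16) the RPKM of *Meis2*, and *Meis3* was 12.7 ± 1.89 times that of *Pbx4*. *Meis2* exceeded *Meis1* in 15 of 16 embryos, by 1.06 ± 0.0473 times, and the 2 ranges overlapped. *Meis1* exceeded *Pbx3* in 16 of 16 embryos, by 1.24 ± 0.0726 times. *Pbx3* exceeded *Meis3* in 8 of 16 embryos, so these neighbours did not differ beyond their spread. Summed over the family, *Meis* genes held 86.5 ± 2.86 RPKM and *Pbx* genes 122 ± 4.00 RPKM. The middle of the order depends on the gene lengths given with the counts. Against them, all annotated exon bases in GRCm39 are 1.20 times as many for *Pbx2*, 1.91 times for *Meis3*, 2.10 times for *Meis2*, 2.36 times for *Pbx4*, 2.52 times for *Pbx3* and 3.28 times for *Meis1*. Per kilobase of these exon bases *Pbx2*, *Meis2* and *Pbx4* kept their places, while *Meis3*, at 12.6 ± 1.06 CPM per kilobase (SD, n = 16), exceeded *Pbx3*, at 9.74 ± 0.312, and *Meis1*, at 9.25 ± 0.469, in 16 of 16 embryos. *Pbx3* then exceeded *Meis1* in 12 of 16 embryos. So the places of *Meis1*, *Pbx3* and *Meis3* are not settled.

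**Figure D1:**
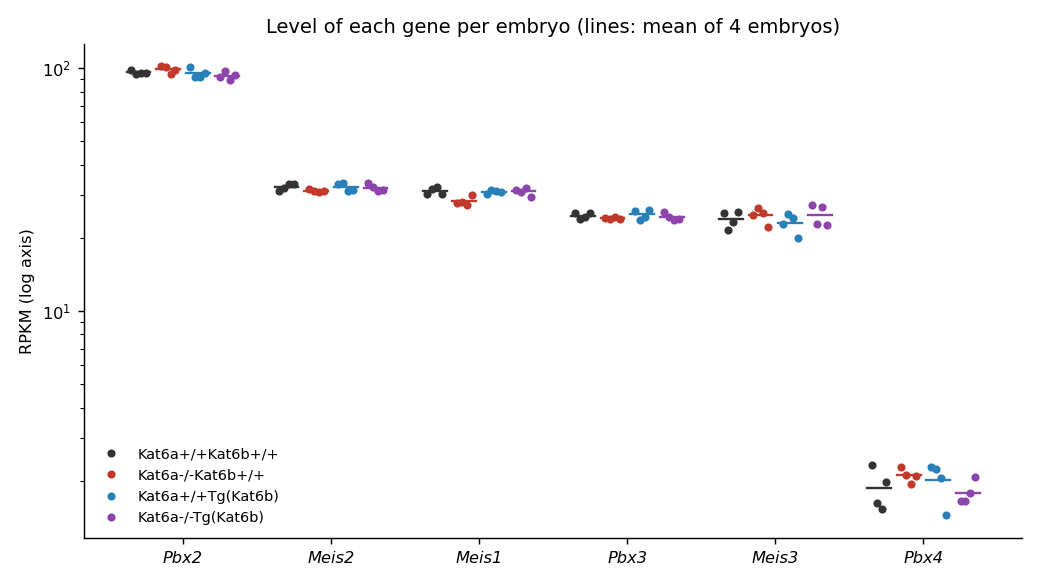
RPKM (log axis) of the 6 genes in each of 16 embryos, coloured by genotype, with a line at the mean of 4 embryos. *Pbx2* lies between 88.8 and 101 RPKM, the next 4 genes reach 33.6 at most, and *Pbx4* lies between 1.44 and 2.32. *Meis1* in *Kat6a-/-Kat6b+/+* embryos reaches 30.07 RPKM, narrowly below the lowest wild-type value of 30.28 and the lowest *Kat6a+/+Tg(Kat6b)* value of 30.18. Such a gap below the wild type was found for 4.01% of all tested genes, and the share for *Kat6a+/+Tg(Kat6b)* embryos was not computed. Every other pair of genotypes overlaps.

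The spread over all 16 embryos was small. The highest CPM was 1.09 times the lowest for *Meis2*, 1.10 times for *Pbx3*, 1.14 times for *Pbx2* and 1.19 times for *Meis1*. It was 1.36 times for *Meis3* and 1.61 times for *Pbx4*. Among 8906 genes with a mean log2 CPM of at least 4, only 4.4% had a smaller SD of log2 CPM than *Meis2* and 5.68% a smaller one than *Pbx3*, while 13.5% were below *Pbx2*, 36.3% below *Meis1* and 77.0% below *Meis3*. For *Pbx4* counting error alone gives a coefficient of variation of 12%, against 15% measured.

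The first question was whether loss of *Kat6a* changed the cofactors. Between *Kat6a-/-Kat6b+/+* and *Kat6a+/+Kat6b+/+* embryos 0 of 6 passed the threshold (edgeR FDR 0.05, over all 15679 tested genes), where 1.88% of all tested genes did. At an unadjusted p under 0.05 there was 1, *Meis1*, where 15.2% of all tested genes were, and DESeq2 and limma-voom likewise called 0. The median log2 fold change of the 6 genes was 0.00, as it was over all tested genes. The median size of the change, without its sign, was 0.053 against 0.078. The tested genes were not matched for level here, and all of the 6 but *Pbx4* had a higher RPKM than at least 78.0% of them.

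*Meis1*, which encodes a Hox and Pbx cofactor required for blood formation, gave the largest difference among the 5 well-covered genes in this comparison. In the 4 wild-type embryos it stood at 104, 109, 112 and 104 CPM. In the 4 *Kat6a-/-Kat6b+/+* embryos it stood at 95.8, 96.4, 93.5 and 103 CPM. All 4 embryos without *Kat6a* were below all 4 wild-type embryos, the highest being 103.5 against a lowest wild-type value of 104.2. Such a gap, in this direction, was found for 4.01% of all tested genes. The log2 fold change was -0.14 (SE 0.04, edgeR FDR = 0.0727), a difference of -9.16% with a 95% confidence interval from -14.1% to -3.90%.

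The difference in *Meis1* had the same direction within both litters and both sexes, but these are not separate checks. Both *Kat6a-/-Kat6b+/+* females came from litter 801, whose wild-type embryo was male, and the wild-type females came from other litters. In litter 801 the 2 *Kat6a-/-Kat6b+/+* embryos averaged 96.1 CPM against 104 CPM in the wild-type littermate, and in litter 803 the values were 98.5 and 109 CPM. The difference of mean log2 CPM was -0.17 among females and -0.12 among males. *Meis1* passed the threshold when *Kat6a-/-Kat6b+/+* replicate 4, the highest of its group, was left out (FDR = 0.0462) and when *Kat6a+/+Tg(Kat6b)* replicate 1 was left out (FDR = 0.0419). With litter as a block over 12 embryos the log2 fold change was -0.13 and the edgeR FDR was 0.555.

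Some tissue markers differed between the same embryos, while 0 of the heart, endothelium, primitive erythroid and gut endoderm markers were called by edgeR, DESeq2 or limma-voom. The 9 neural tube markers summed to between 434 and 452 CPM in *Kat6a-/-Kat6b+/+* embryos and to between 467 and 496 CPM in the wild type, with no overlap, and all 9 had a log2 difference below 0, while 0 were called by edgeR, DESeq2 or limma-voom and 4 had an unadjusted p under 0.05. The 8 lateral plate and limb markers summed to between 220 and 253 CPM against 249 and 304 CPM, with a median log2 difference of -0.32. Of these, 0 were called by edgeR or limma-voom and 3 by DESeq2, and 4 had an unadjusted p under 0.05. The 7 yolk sac endoderm markers summed to between 6.09 and 14.0 CPM against 12.5 and 51.9 CPM. *Afp* had the highest mean of them over all embryos, at 22.8 CPM, against 1.92 CPM or less for each other marker. Of 5 tested 0 were called by edgeR, DESeq2 or limma-voom, with 1 at an unadjusted p under 0.05. *Uncx*, a somite gene and the 1 called of 9 paraxial mesoderm markers, fell by 0.34 on the log2 scale (edgeR FDR = 0.0136). Those 9 markers had a median of -0.02, with values from -0.34 to 0.16. The call was lost with no surrogate variables or the litter block (edgeR FDR = 0.0604 and 0.0935). *Foxd3*, the 1 called of 5 neural crest markers, fell by 0.46 (edgeR FDR = 0.0392), with a list median of -0.11. Its call was lost with no or 1 surrogate variable, sex as covariate or the litter block (edgeR FDR = 0.0693, 0.0745, 0.0755 and 0.476). The part of these markers in the *Meis1* difference was not tested, and in whole embryos fewer cells of a type and less RNA per cell cannot be told apart.

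**Figure D2:**
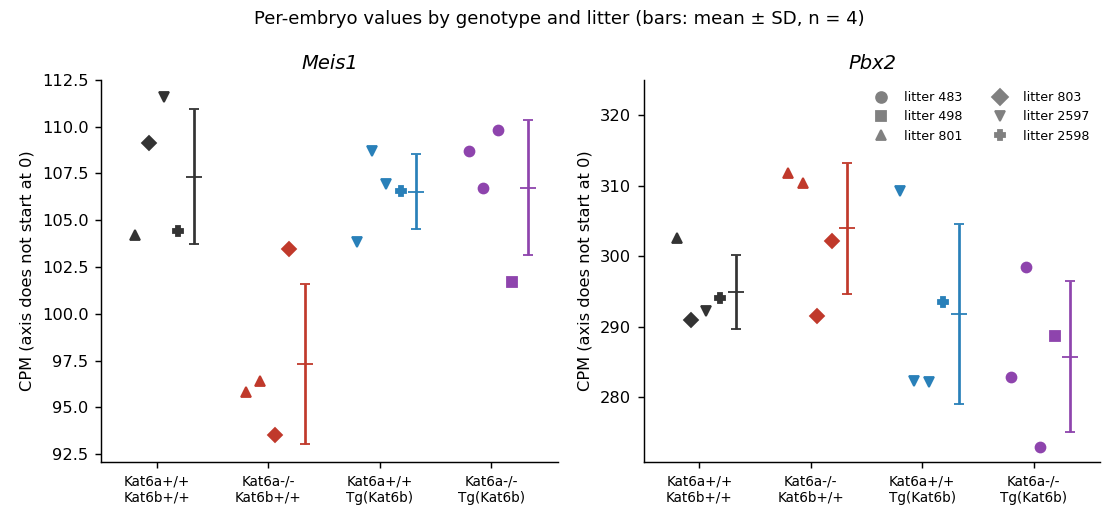
CPM of *Meis1* (left) and *Pbx2* (right) in each embryo by genotype, with the symbol giving the litter and the bar the mean ± SD of 4 embryos; the axes do not start at 0. The 4 *Kat6a-/-Kat6b+/+* embryos hold *Meis1* at 93.5 to 103 CPM, below all wild-type embryos, and 3 of them have *Pbx2* above 300 CPM.

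The other Meis genes did not pass the test. *Meis2* stood at 193, 198, 205 and 204 CPM in wild-type embryos and at 196, 192, 190 and 193 CPM in *Kat6a-/-Kat6b+/+* embryos, a log2 difference of -0.05 (SE 0.03, edgeR FDR = 0.481). *Meis3* stood at 45.0, 38.2, 41.3 and 45.3 CPM against 44.0, 46.8, 44.9 and 39.2 CPM. Its log2 difference was 0.05 with a 95% confidence interval from -0.11 to 0.21. Both pairs of groups overlapped.

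Among the Pbx genes, *Pbx2* stood at 303, 291, 292 and 294 CPM in wild-type embryos and at 312, 310, 292 and 302 CPM in *Kat6a-/-Kat6b+/+* embryos. The log2 difference was 0.04 (SE 0.03, edgeR FDR = 0.602). *Pbx3* ranged from 67.9 to 72.0 CPM in the wild type and from 68.1 to 69.2 CPM without *Kat6a*, a log2 difference of -0.03 (SE 0.04, edgeR FDR = 0.773). *Pbx4* ranged from 2.19 to 3.31 and from 2.78 to 3.26 CPM, and its 95% confidence interval, from -12.1% to 44.4%, would hold a sizeable rise as well as a small fall. For the other 5 genes the widest bounds in this comparison were -14.1% and 15.6%. *Pbx4* lies on chromosome 8, as *Kat6a* does, 46.9 Mb away.

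Over the same embryos the Hox genes, which encode the partners of these cofactors, moved further. Of 38 tested Hox genes 9 fell and 0 rose without *Kat6a*, and the median log2 fold change of the list was -0.23. The largest falls past the threshold were those of *Hoxb1*, expressed in hindbrain rhombomere 4, by 0.66, *Hoxa6* by 0.62, *Hoxd4* by 0.62 and *Hoxd3* by 0.44 on the log2 scale (edgeR FDR = 1.79e-05, 0.001, 4.13e-06 and 0.0032). The call of *Hoxb1* was lost with no surrogate variables, 1 surrogate variable or sex as the covariate (edgeR FDR = 0.0864, 0.0775 and 0.0802). With litter as a block 3 Hox genes were called, and *Hoxa6*, *Hoxd4* and *Hoxd3* were not among them (edgeR FDR = 0.132, 0.0561 and 0.217). The Hox genes were part of what the study set out to measure and were read with earlier results known, and neighbouring or antisense Hox transcripts may share reads.

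Of 11 other TALE genes, all tested, 4 fell and 0 rose, with a median log2 fold change of -0.26. They were *Irx2* (-0.40), *Irx1* (-0.33) and *Irx5* (-0.27), Iroquois genes of neural and limb patterning, and *Pknox1* (-0.30), which encodes another partner of Pbx proteins (edgeR FDR = 0.0116, 0.0292, 0.0121 and 0.0108). *Pknox1* stood at 28.7 CPM without *Kat6a* against 35.6 CPM in the wild type. This count fell to 2 without any 1 of wild-type replicates 2 and 4 and *Kat6a-/-Kat6b+/+* replicates 1 and 4, and to 0 with litter as a block.

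Of 18 genes of retinoic acid metabolism and signalling, to which *Meis1* and *Meis2* are known to respond, 3 fell and 0 rose. They were *Cyp26b1* (-0.69) and *Cyp26c1* (-0.52), which encode enzymes that break retinoic acid down, and *Aldh1a2* (-0.27), which encodes the enzyme that makes it in the trunk (edgeR FDR = 2.05e-06, 0.00961 and 0.0014). With litter as a block 1 was called. Of 10 genes described elsewhere as bound or regulated by Meis or Pbx proteins 9 were tested, and *Hoxb1* was the 1 called. The difference between these lists and the 6 cofactor genes was not tested.

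**Figure D3:**
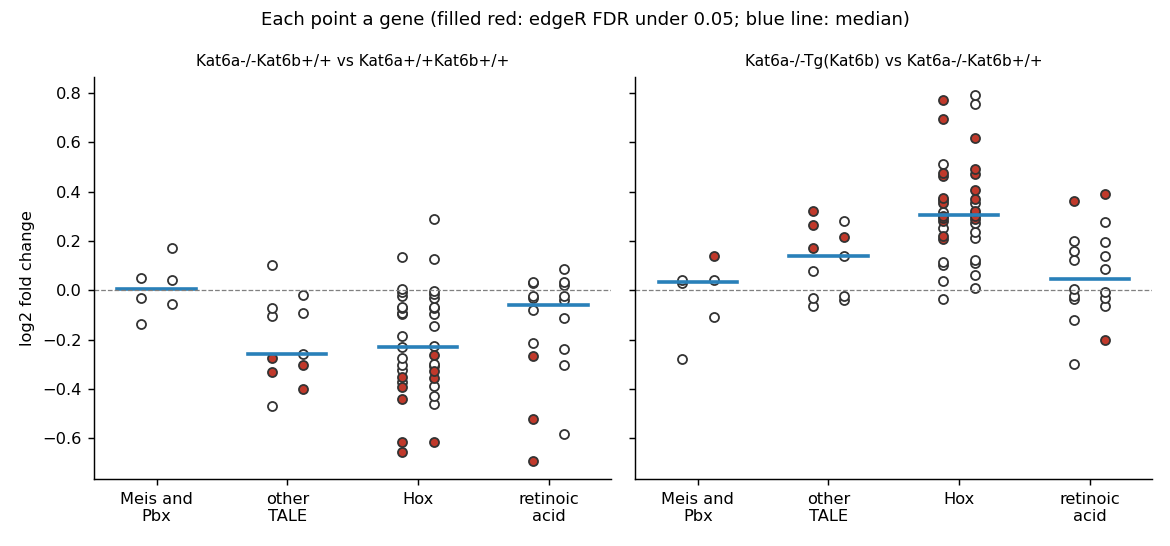
Log2 fold change of each gene of 4 lists for *Kat6a-/-Kat6b+/+* embryos less wild-type embryos (left) and for *Kat6a-/-Tg(Kat6b)* embryos less *Kat6a-/-Kat6b+/+* embryos (right), filled red where the edgeR FDR was under 0.05, with a blue line at the list's median. The Meis and Pbx genes have medians of 0.00 and 0.04, against -0.23 and 0.31 for the Hox genes; both panels share the *Kat6a-/-Kat6b+/+* embryos.

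The second question was what the transgene did on a wild-type *Kat6a* background. Between *Kat6a+/+Tg(Kat6b)* embryos and the wild type, 0 of 6 cofactor genes were called by edgeR, DESeq2 or limma-voom, where 0.14% of all tested genes were called by edgeR, and 0 had an unadjusted p under 0.05, where 11.5% of all tested genes did. *Meis1* stood at 104, 109, 107 and 107 CPM in *Kat6a+/+Tg(Kat6b)* embryos, within the range of the wild type. *Pbx2* stood at 309, 282, 282 and 293 CPM, and *Pbx3* at 73.7, 67.5, 69.3 and 74.3 CPM. The log2 fold changes of *Meis1*, *Meis2*, *Pbx2* and *Pbx3* lay between -0.01 and 0.02, while *Meis3* had -0.07 and *Pbx4* 0.13, both with intervals that held 0. Of 38 tested Hox, 11 other TALE and 18 retinoic acid genes 0 were called by edgeR or limma-voom. Those with an unadjusted p under 0.05 numbered 18, 2 and 1. The tested Hox genes had a median log2 fold change of 0.18, with values from 0.01 to 0.41. The median was 0.12 for the other TALE genes and 0.02 for the retinoic acid genes. DESeq2 called 5 Hox genes and 0 of the other 2 lists.

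The third question was whether the cofactors in *Kat6a-/-Tg(Kat6b)* embryos stood at wild-type levels. Between *Kat6a-/-Tg(Kat6b)* embryos and the wild type, 0 of 6 were called by edgeR, DESeq2 or limma-voom, where 0.67% of all tested genes were called by edgeR, and 0 had an unadjusted p under 0.05, where 12.7% of all tested genes did. *Meis1* stood at 109, 107, 110 and 102 CPM, a log2 difference from the wild type of 0.00 with a 95% confidence interval from -5.82% to 6.00%. *Pbx2* was at 283, 298, 273 and 289 CPM, and 3 of these 4 values were below the lowest wild-type embryo. Its log2 difference was -0.07 with an interval from -9.29% to 0.158% (edgeR FDR = 0.411). *Meis2*, *Meis3*, *Pbx3* and *Pbx4* had log2 differences of -0.01, 0.09, 0.00 and -0.11.

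The other lists were not all at wild-type levels in these embryos. Of 38 Hox genes 3 were higher than in the wild type and 0 lower, with a median log2 difference of 0.09. They were *Hoxa10* (0.42), *Hoxc9* (0.42) and *Hoxc10* (0.35), which pattern the posterior trunk (edgeR FDR = 0.0112, 0.046 and 0.0201), and 1 was called without *Kat6a-/-Tg(Kat6b)* replicate 2 or 4. Of 18 retinoic acid genes 2 were lower and 0 higher, *Cyp26b1* (-0.30) and *Aldh1a2* (-0.28; edgeR FDR = 0.0427 and 0.00444). That count was 4 without wild-type replicate 2. It was 1 without any other 1 wild-type embryo, any 1 *Kat6a-/-Kat6b+/+* embryo, *Kat6a+/+Tg(Kat6b)* replicate 2 or any 1 *Kat6a-/-Tg(Kat6b)* embryo. Of 11 other TALE genes 0 were called by edgeR, DESeq2 or limma-voom, and 2 had an unadjusted p under 0.05.

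The 1 difference among the cofactor genes that passed the threshold was between the 2 genotypes without *Kat6a*. Between *Kat6a-/-Tg(Kat6b)* embryos and *Kat6a-/-Kat6b+/+* embryos, 1 of 6, *Meis1*, was called, where 7.14% of all tested genes were, and 3.39% were called as higher with the transgene. At an unadjusted p under 0.05 there were 2, *Meis1* and *Pbx2*, where 23.2% of all tested genes were. *Meis1* rose by a log2 fold change of 0.14 (SE 0.04, edgeR FDR = 0.0419), a rise of 9.99% with a 95% confidence interval from 3.78% to 16.6%. In size this was close to the difference from the wild type, which had the smaller unadjusted p (0.00189 against 0.00261 by edgeR) but did not pass after adjustment. The 2 groups overlapped, since the lowest *Kat6a-/-Tg(Kat6b)* embryo, from litter 498, had 102 CPM and the highest *Kat6a-/-Kat6b+/+* embryo 103 CPM. The difference of mean log2 CPM was 0.12 among females and 0.15 among males. This comparison uses the same *Kat6a-/-Kat6b+/+* embryos as the comparison with the wild type, so the 2 *Meis1* values are not independent of each other.

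The *Meis1* call stood close to the threshold. It was kept under 15 of 26 alternatives, with log2 fold changes between 0.12 and 0.17 under all of them. It was lost with no or 1 surrogate variable, with sex in their place and with replicate number as a block. It was also lost without wild-type replicate 3, without any 1 of *Kat6a-/-Kat6b+/+* replicates 1, 2 and 3, and without any 1 of *Kat6a-/-Tg(Kat6b)* replicates 1, 2 and 3, and over these single omissions the FDR lay between 0.0516 and 0.109.

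Some markers of other tissues moved with this comparison. Of 8 lateral plate and limb markers 4 rose, *Hand1*, *Tbx4*, *Pitx1* and *Tbx5*, by 1.16, 1.02, 0.91 and 0.66 on the log2 scale (edgeR FDR = 0.0151, 0.00924, 0.00468 and 0.0245). The 8 markers summed to between 220 and 253 CPM in *Kat6a-/-Kat6b+/+* embryos, 287 and 319 CPM in *Kat6a-/-Tg(Kat6b)* embryos and 249 and 304 CPM in the wild type. The 7 yolk sac endoderm markers summed to between 6.09 and 14.0, 34.4 and 48.3, and 12.5 and 51.9 CPM in the same order. *Afp* had the highest mean of them over all embryos, at 22.8 CPM. Of 5 tested 0 were called by edgeR or limma-voom and 1 by DESeq2, with 2 at an unadjusted p under 0.05. *Tek*, an endothelial receptor gene and 1 of 6 endothelium markers, rose by 0.30, and *Meox1*, a somite gene and 1 of 9 paraxial mesoderm markers, fell by 0.21 on the log2 scale (edgeR FDR = 0.0323 and 0.00397). Each was the 1 gene called in its list. The list medians were 0.01 and -0.03, with values from -0.09 to 0.30 and from -0.34 to 0.15. No marker of the other lists was called by edgeR, while DESeq2 and limma-voom each called 1 neural crest marker. The 9 neural tube markers summed to between 428 and 465 CPM in *Kat6a-/-Tg(Kat6b)* embryos. Their sums were 434 to 452 CPM in *Kat6a-/-Kat6b+/+* embryos and 467 to 496 CPM in the wild type. The part of these markers in the *Meis1* difference was not tested.

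*Pbx2* had the opposite sign in this comparison. All *Kat6a-/-Tg(Kat6b)* values, 273 to 298 CPM, lay below the 312, 310 and 302 CPM of *Kat6a-/-Kat6b+/+* replicates 1, 2 and 4, while replicate 3 had 292 CPM, so the groups overlapped. The log2 difference was -0.11 (SE 0.03, edgeR FDR = 0.0531), with a 95% confidence interval from -11.7% to -2.66%. *Pbx2* passed the threshold under 7 alternatives, among them DESeq2 (adjusted p = 0.0395) and limma-voom (adjusted p = 0.0434), and without any 1 of wild-type replicate 2 and *Kat6a+/+Tg(Kat6b)* replicates 1 and 2. With no surrogate variables the log2 difference was -0.09 (edgeR FDR = 0.182). In the annotation 6.16% of the exon bases of *Pbx2* are shared with *Gpsm3* on the same strand, and reads there could be counted for either.

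The other 4 genes did not pass the test between the genotypes without *Kat6a*. *Meis2*, *Meis3* and *Pbx3* had log2 differences of 0.04, 0.04 and 0.03, and *Pbx4* had -0.28 with a 95% confidence interval from -0.64 to 0.08. For *Meis3* the difference was -0.18 among females and 0.18 among males, with 2 embryos of a sex per genotype. Of the Hox genes 19 of 38 rose and 0 fell, with a median of 0.31 and the largest called rises in *Hoxa10* (0.77), *Hoxa6* (0.69), *Hoxd4* (0.62) and *Hoxb1* (0.49). Of the other TALE genes 4 of 11 rose, *Irx2* (0.32), *Irx5* (0.27), *Pknox1* (0.22) and *Irx3* (0.17), and 0 fell. That count was 2 without any 1 of *Kat6a-/-Kat6b+/+* replicates 1 and 2 and *Kat6a-/-Tg(Kat6b)* replicates 2 and 3.

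**Figure D4:**
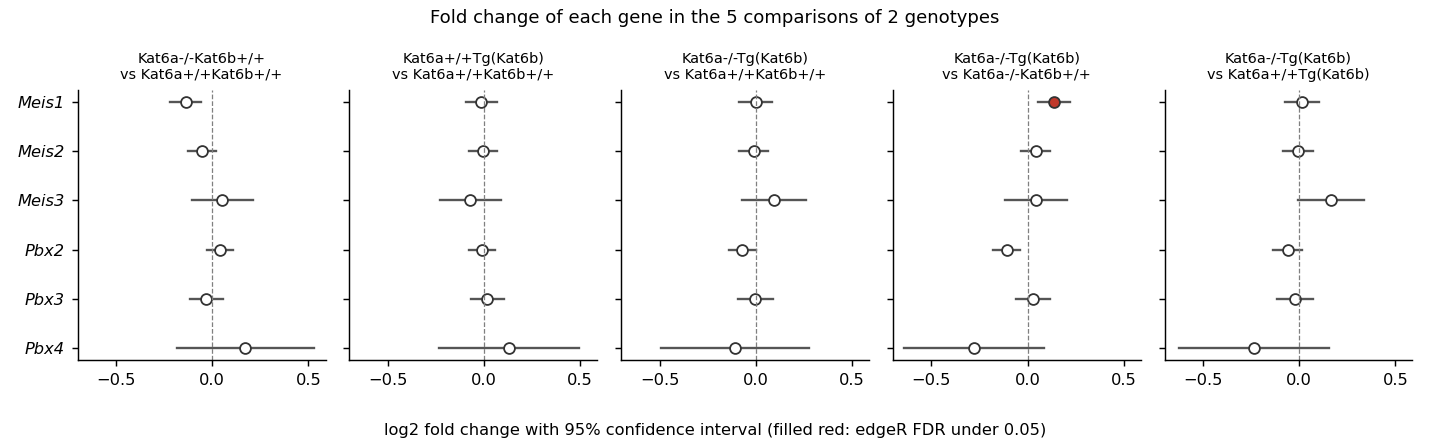
Log2 fold change (point) and 95% confidence interval (line) of each gene in 5 comparisons of 2 genotypes, filled red where the edgeR FDR was under 0.05. *Meis1* at 0.14 between the genotypes without *Kat6a* is the single filled point, and the intervals of *Pbx4* are the widest.

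Loss of *Kat6a* was also read on the transgenic background. Between *Kat6a-/-Tg(Kat6b)* embryos and *Kat6a+/+Tg(Kat6b)* embryos, 0 of 6 cofactor genes were called by edgeR, DESeq2 or limma-voom, where 3.41% of all tested genes were called by edgeR, and 0 had an unadjusted p under 0.05, where 18.9% of all tested genes did. *Meis1* differed by 0.01 on the log2 scale, with a 95% confidence interval from -5.12% to 7.28%. *Meis3* had the largest positive value, 0.17, with an interval from -0.460% to 26.3% (edgeR FDR = 0.284), and reached 44.4 CPM in *Kat6a+/+Tg(Kat6b)* embryos and 48.1 CPM in *Kat6a-/-Tg(Kat6b)* embryos. *Pbx2* differed by -0.06 and *Pbx4* by -0.24, both with intervals that held 0. Of the Hox genes 5 fell in this comparison and 0 rose, and of the other TALE genes *Mkx* (-0.53), a regulator of tendon cells, and *Irx1* (-0.37) fell. Leaving out any 1 *Kat6a-/-Tg(Kat6b)* embryo lowered the Hox count to 2 or 3 and the TALE count to 1 or 0, and leaving out *Kat6a-/-Kat6b+/+* replicates 1, 2 or 3 or *Kat6a+/+Tg(Kat6b)* replicates 1 or 2 lowered the TALE count to 1.

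Whether the effect of *Kat6a* loss depended on the transgene was tested as an interaction. By edgeR 0 of 6 were called, where 0.153% of all tested genes were, and DESeq2 and limma-voom likewise called 0. At an unadjusted p under 0.05 there were 2, where 14.6% of all tested genes were. *Meis1* had an interaction of 0.15 on the log2 scale (SE 0.06, edgeR FDR = 0.239) and *Pbx2* one of -0.10 (SE 0.05, edgeR FDR = 0.342). For *Meis2*, *Meis3*, *Pbx3* and *Pbx4* it was 0.05, 0.11, 0.01 and -0.41, each with a 95% confidence interval that held 0. A difference of the *Kat6a* effect between backgrounds was thus not shown for any cofactor gene.

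A test of any difference among the 4 genotypes called *Meis1* (edgeR FDR = 0.0431) and none of the other 5, where 11.5% of all tested genes were called. *Pbx2* was next with an edgeR FDR of 0.137, and these 2 genes had an unadjusted p under 0.05, as did 28.2% of all tested genes. The *Meis1* call was lost under 13 of 25 alternatives, over which its FDR ranged from 0.0232 to 0.174, and among these were the omissions of wild-type replicate 3 and of replicates 1, 2 and 3 of both genotypes without *Kat6a*.

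**Figure D5:**
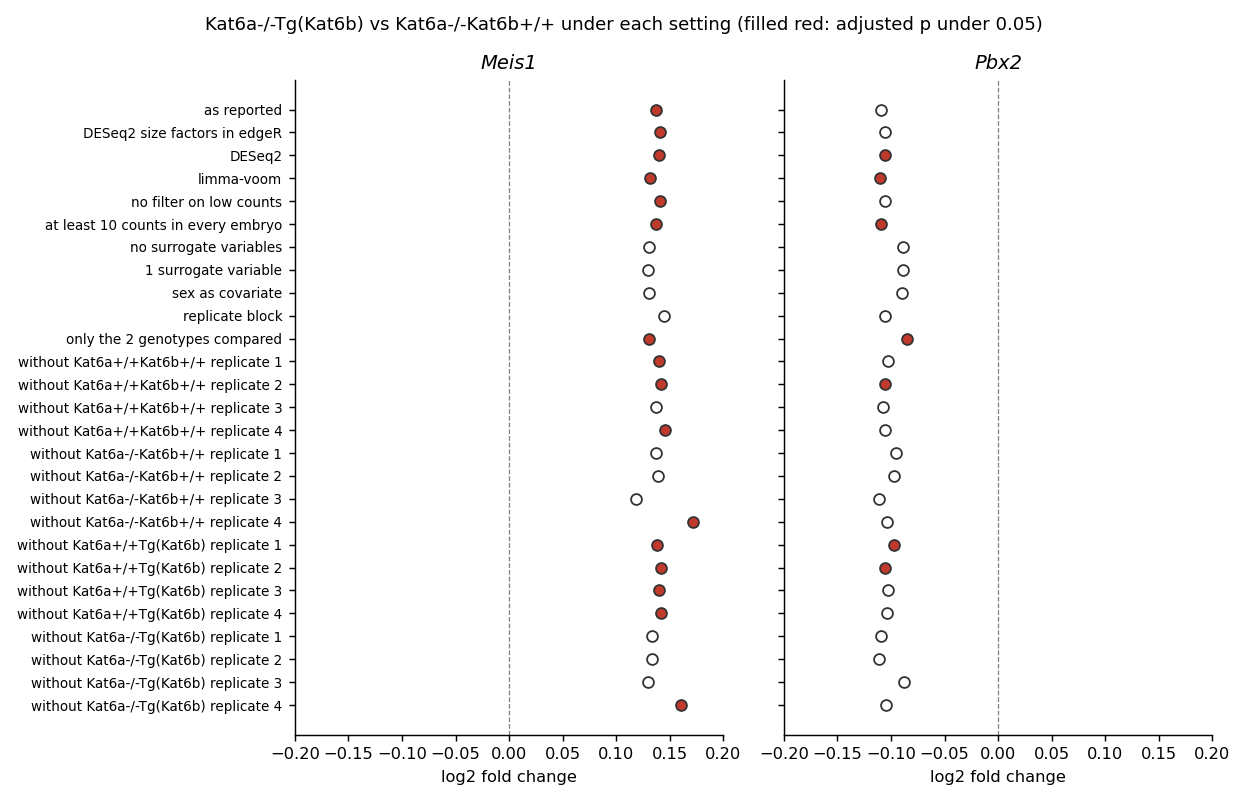
Log2 fold change of *Meis1* (left) and *Pbx2* (right) for *Kat6a-/-Tg(Kat6b)* embryos less *Kat6a-/-Kat6b+/+* embryos under each setting, filled red where the adjusted p was under 0.05. *Meis1* stays between 0.12 and 0.17, *Pbx2* stays between -0.11 and -0.09, and both cross the threshold with the setting.

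In position the 6 genes had little in common. In GRCm39 *Meis1* lies on the minus strand at chr11:18829817-18969749, *Meis2* on the minus strand at chr2:115693062-115896341, *Meis3* on the plus strand at chr7:15909015-15920439, *Pbx2* on the plus strand at chr17:34810240-34816375, *Pbx3* on the minus strand at chr2:34061469-34263154 and *Pbx4* on the plus strand at chr8:70284110-70325822. Their spans run from 6136 bases for *Pbx2* to 203280 for *Meis2*. Genes on the opposite strand overlap 16.8% of the exon bases of *Meis1*, 6.32% of those of *Pbx2* and 5.52% of those of *Meis2*. The libraries were unstranded, so reads from such partners cannot be told apart from those of *Meis1*, *Pbx2* and *Meis2*. On the same strand, *Gm37818*, which is not among the counted genes, shares 9.11% of the exon bases of *Meis1*. The strand setting of the counting is not given in the sources used here.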

How the data were processed

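RNA from 16 whole E9.5 embryos was sequenced as unstranded paired-end libraries, and the study's methods state alignment to mm39 with Rsubread. The submitters' processing notes name bcl2fastq and featureCounts. The deposited values are raw counts per gene and embryo, with gene lengths and Entrez identifiers; the annotation release and the handling of shared reads are not given in the sources used here. The 6 genes and all gene lists were chosen with earlier results of these data known.

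Counts were tested with edgeR 4.0.16 in R 4.3.3. filterByExpr (minimum count 10, minimum total 15) kept 15679 of 26411 genes, TMM factors were 0.985 to 1.02, and 2 surrogate variables from sva 3.50.0 on log2 CPM (prior count 2) were covariates in a robust quasi-likelihood fit over 16 embryos. P-values were Benjamini-Hochberg adjusted over all tested genes (FDR, threshold 0.05). Embryos are the replicates. Named genes were all 6, *Kat6a*, *Kat6b*, and up to 4 called genes with the largest fold change per list and comparison, beside marker genes. Alternatives, tried with DESeq2 1.42.0 and limma 3.58.1 among others, are given at the end. Tests were first tested on simulated data. Gene positions are from GENCODE on GRCm39.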

Additional observations from a re-analysis of the deposited data

How the results depend on the processing

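Each result was recomputed under up to 27 alternatives. Of 942 alternative values of the 36 fold changes and interactions of the 6 genes, 922 stayed on the same side of the threshold and 20 did not, all of them for *Meis1* or *Pbx2*, and no called value changed sign. Of 168 alternative RPKM means, 143 moved by less than 1 SD; of the 25 that moved more, 24 came from using all annotated exon bases as the length, an alternative chosen after seeing the data.

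Between *Kat6a-/-Kat6b+/+* and wild-type embryos the number of the 6 genes called was 0 under every alternative except the omission of single embryos, where it ranged from 0 to 1. Between the genotypes without *Kat6a*, where it was 1, it was 2 with DESeq2, limma-voom, at least 10 counts in every embryo, or only the 2 genotypes in the fit. It was 0 with no or 1 surrogate variable, with sex in their place and with the replicate block, and it ranged from 0 to 2 over omissions of single embryos. For any difference among the 4 genotypes, where it was 1, it was 0 with limma-voom, no filter on low counts, no or 1 surrogate variable, sex as covariate and the replicate block, and it ranged from 0 to 1 over omissions. It was 0 under every alternative for the other 3 comparisons and the interaction. The cause of these changes was not tested.

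Replicate numbers were shared by the genotypes, and the labels do not pair same-numbered embryos. Some of these shared a sex or a litter, such as replicate 1 of the wild type and of *Kat6a-/-Kat6b+/+*, both from litter 801. Deviations of same-numbered embryos from the genotype means correlated at -0.26 to 0.22 (median 0.044, against -0.0059 for different numbers). Of 24 such pairs 10 were over 0.1. Of 16 embryos 8 correlated best with their own number among the 4 numbers. This is a hint from the data, and the part of shared litters and sexes in it was not tested. The design gives no pairs, so the embryos were treated as unpaired. With the replicate block 0 of the 6 genes were called in any comparison.

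The numbers of all tested genes called depended on the setting. They ranged from 18 (litter block) to 432 for *Kat6a-/-Kat6b+/+* vs. wild type (295 as reported), from 39 to 346 for *Kat6a-/-Tg(Kat6b)* vs. wild type (105), and from 1 to 219 for *Kat6a+/+Tg(Kat6b)* vs. wild type (22). They ranged from 492 to 2586 between the genotypes without *Kat6a* (1119), from 165 to 1743 between the transgenic genotypes (535), from 16 to 138 for the interaction (24) and from 912 to 2423 for any difference (1805). For *Pbx4*, with 41 to 134 counts per embryo, depth limits what could be detected.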

Other observations

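Over the 16 embryos, levels of the cofactor genes were also set against each other. Of 15 pairs 0 passed a permutation test of Pearson's r after Benjamini-Hochberg adjustment, and 3 had an unadjusted p under 0.05. The pair farthest from 0 was *Meis1* and *Pbx2*, with r = -0.58 (permutation p = 0.0188, adjusted p = 0.213) and Spearman's rho = -0.61 (permutation p = 0.0129, adjusted p = 0.152). The permutations exchange embryos across genotypes and litters, and the means of both genes varied with genotype, so r mixes differences between genotypes with covariation within them. Over deviations from the genotype means r was -0.36. Without the 2 embryos farthest from the median of *Meis1*, r was -0.67, and it was -0.79 among the females and -0.40 among the males. *Meis1* and *Meis2* had r = 0.52 (permutation p = 0.0382, adjusted p = 0.213), and 0.23 over deviations from the genotype means.

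The tested genes whose log2 CPM followed each cofactor gene most closely over the 16 embryos are given as a description, picked as the highest of all tested genes. For *Meis1* they were *Rab8b*, *Zfp229* and *D16Ertd472e*, with Pearson's r of 0.88, 0.87 and 0.86. For *Pbx2* they were *Eif6*, *Eif1* and *Ndufa5*, with r of 0.92, 0.92 and 0.92. For *Meis2* the highest was *Smarcd2* (0.76), for *Meis3* *Zswim9* (0.83), for *Pbx3* *Mmadhc* (0.78) and for *Pbx4* *Txnl4b* (0.86). No Hox gene and no other member of the Meis and Pbx families was among the 3 closest genes of any of the 6.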
